A study of Rattus norvegicus with 72 samples.

Results

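The cytochrome P450 genes described here are 42 of the 49 P450 symbols on the array and of 9653 named genes in all. They were chosen by symbol: every probe whose platform symbol starts with Cyp and a digit was taken, and Cyp2e1, Cyp1a2, Cyp3a2, Cyp3a9, Cyp2c11, Cyp51 and Cyp4a3 were left out. The members are read by 44 of 20500 probes, since Cyp2c23 and Cyp2d2 have 2 probes each, which were averaged. The rule uses symbols alone, but it was written with earlier results of these data known. All 42 passed the filter on missing values. Families 1 to 4, which oxidise drugs, fatty acids and eicosanoids, supplied 29 members. The families that act on steroids, retinoids, vitamin D and bile acids supplied 12, and Cyp20a1, the remaining member, belongs to neither class.

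Livers of 36 rats were profiled after acetaminophen, gavaged in methyl cellulose, in 12 groups of 3, at 50, 150, 1500 and 2000 mg/kg and at 6, 24 and 48 h after the dose. Each rat's RNA, taken from the left liver lobe, was hybridised on 2 arrays with exchanged dyes against control RNA of vehicle-treated rats of the same dose and time. This control was a pool in 10 groups. The titles call it a mock control at 150 mg/kg and 6 h, and at 150 mg/kg and 24 h a sham control on 1 array per rat and a mock control on the second. The rats were separate animals, and the labels used here give neither strain, sex nor age. A value below is the log2 ratio of 1 treated rat over its control, averaged over its 2 arrays. The signs rest on the red-over-green convention of the array software, which the labels do not state.

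P450 enzymes are heme proteins, mostly of the endoplasmic reticulum, that insert an oxygen atom into their substrate with electrons from the reductase encoded by Por. In liver, families 1 to 3 clear drugs and other foreign compounds and family 4 hydroxylates fatty acids and eicosanoids, while other families make or break down bile acids, retinoic acid, vitamin D and steroid hormones. Acetaminophen is turned into its reactive product by P450 enzymes, among them some of the 7 genes left out here, and high doses injure the hepatocytes that hold most of these enzymes.

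A group mean was tested against 0 in limma, and calling a gene required a change of 1.5-fold or more as well as an adjusted p under 0.05 (Benjamini-Hochberg, over 17299 genes or unnamed probes). At 6 h, 0 members were called after 50 mg/kg (1.42% of all features were called), 0 after 150 mg/kg (0.0347%), 2 after 1500 mg/kg (7.03%) and 2 after 2000 mg/kg (7.96%). At an unadjusted p below 0.05 the 2 lower doses had 6 and 4 of 42 members (14.2% and 7.94% of all features). At 24 h the counts of calls were 1 after 50 mg/kg (3.55% of all features), 0 after 150 mg/kg (0.145%), 11 after 1500 mg/kg (9.89%) and 14 after 2000 mg/kg (14.8%). At 48 h they were 0 after 50 mg/kg (3.95%), 0 after 150 mg/kg (1.48%), 18 after 1500 mg/kg (18.7%) and 20 after 2000 mg/kg (22%). The lower doses therefore called 1 member in 6 groups, Cyp2c12 at 50 mg/kg and 24 h, and unadjusted p-values below 0.05 were held by 12 of 42 members in both 24 h groups (32% and 5.65% of all features after 50 and 150 mg/kg) and by 9 and 11 in the 48 h groups (32.4% and 21.6%).

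The calls at the high doses were mostly losses. After 1500 mg/kg, 10 of 11 calls at 24 h and 14 of 18 at 48 h were lower than the control. After 2000 mg/kg, 11 of 14 at 24 h and 14 of 20 at 48 h were lower. Over all features 2.75% and 4.43% were called lower at 24 h after 1500 and 2000 mg/kg, and 7.14% and 10.3% higher. At 48 h the same 13 genes were called lower at both doses, with Cyp4f1 added at 1500 mg/kg and Cyp8b1 at 2000 mg/kg, and 4 genes, Cyp1b1, Cyp4v3, Cyp7b1 and Cyp20a1, were called higher at both. At 48 h 5.42% and 9.17% of all features were called lower after 1500 and 2000 mg/kg, and 13.3% and 12.8% higher. A lower ratio in whole liver can come from fewer hepatocytes or from less RNA per cell, and these cannot be told apart in bulk samples.

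**Figure D1:**
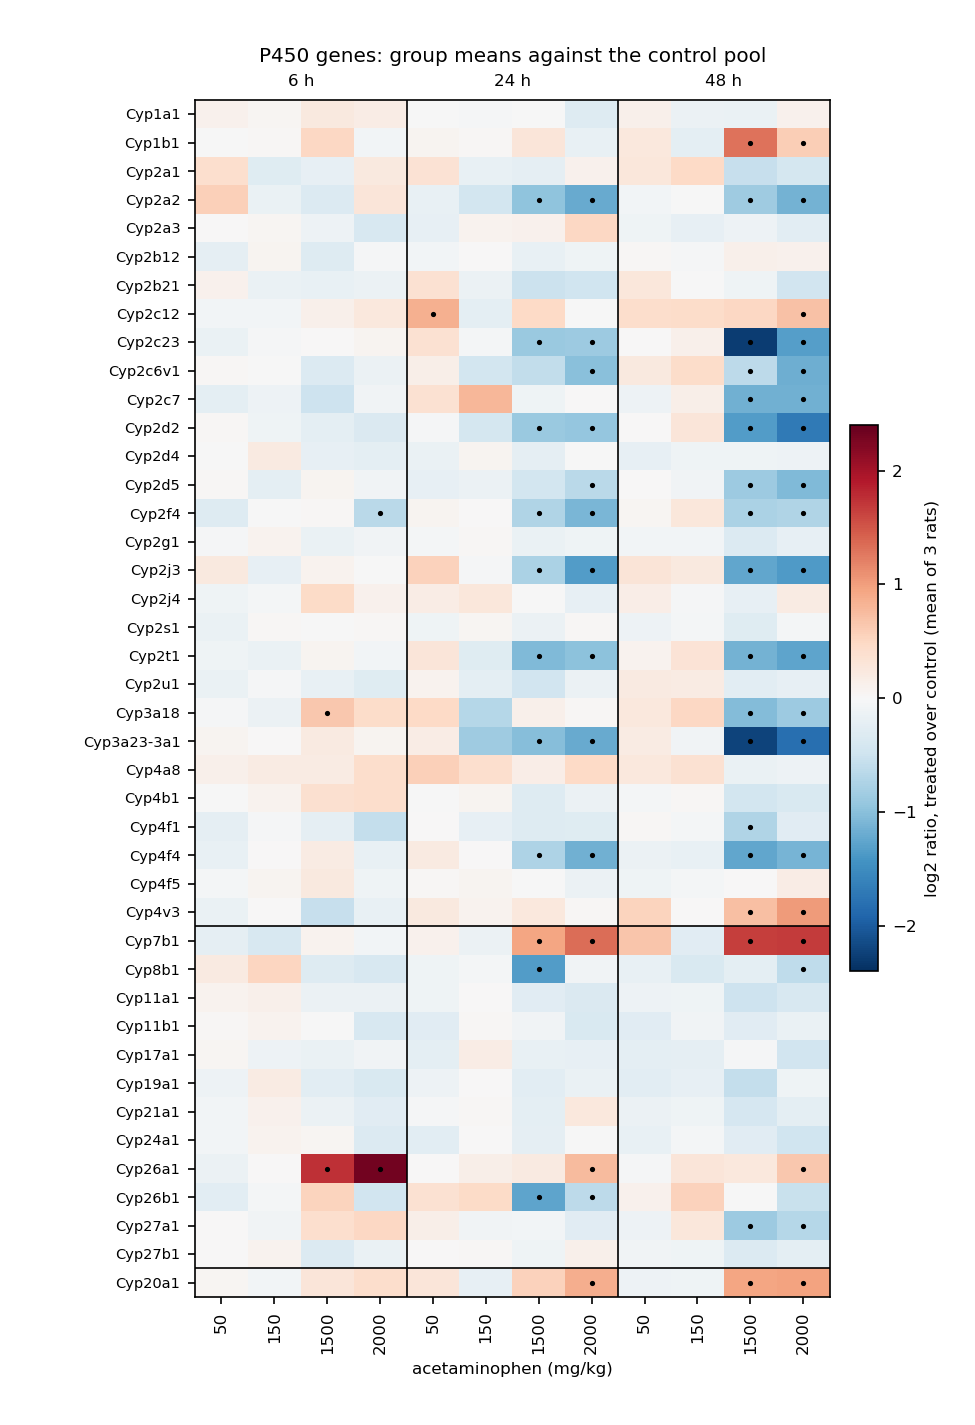
Group means of the 42 P450 genes (rows) in the 12 dose and time groups (columns, doses rising within each time), as the log2 ratio of treated rats over control. Colour gives the mean of 3 rats (2 rats for Cyp2b12, Cyp2c7 and Cyp4f1 in 1 group each), a dot marks a called mean, and horizontal lines part families 1 to 4, the steroid, retinoid, vitamin D and bile acid families, and Cyp20a1. Dots at 50 and 150 mg/kg stand at Cyp2c12 alone, and the 48 h columns of 1500 and 2000 mg/kg hold 18 and 20 dots.

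The average of the 2 high doses, 1500 and 2000 mg/kg, was then set against that of the 2 low doses, with 6 rats at each level. At 6 h, 2 members were higher and 1 lower (8.13% of all features were called, 4.67% higher and 3.46% lower). At 24 h, 2 were higher and 13 lower (9.93%, 6.56% higher and 3.37% lower), and at 48 h, 4 were higher and 14 lower (12.4%, 8.26% higher and 4.09% lower). In families 1 to 4 the median difference over 29 members was 0.01 at 6 h, -0.23 at 24 h and -0.45 at 48 h on the log2 scale. In the 12 members of the steroid, retinoid, vitamin D and bile acid families it was -0.19, -0.12 and -0.17. The median over all features tested lay at -0.0043, -0.0186 and -0.0285. Families 1 to 4 had 1 call at 6 h, 11 at 24 h and 15 at 48 h, against 2, 3 and 2 in the other 12. The difference between these 2 classes was not tested. When the rats that share a control were taken as a random block, the calls of Cyp2a2, Cyp2c6v1, Cyp2c7, Cyp3a23-3a1, Cyp7b1 and Cyp8b1 ended at 24 h (adjusted p = 0.0664, 0.196, 0.185, 0.166, 0.0727 and 0.289), as did those of Cyp3a18 and Cyp8b1 at 6 h (0.171 and 0.217). With arrays scaled to equal spread, 8 members were called at 24 h. No longer called then were Cyp2a2, Cyp2b21, Cyp2c6v1, Cyp2d2, Cyp8b1 and Cyp20a1, at -0.22, -0.41, -0.15, -0.20, -0.45 and 0.53. Nor was Cyp3a23-3a1, whose difference turned to 0.03.

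**Figure D2:**
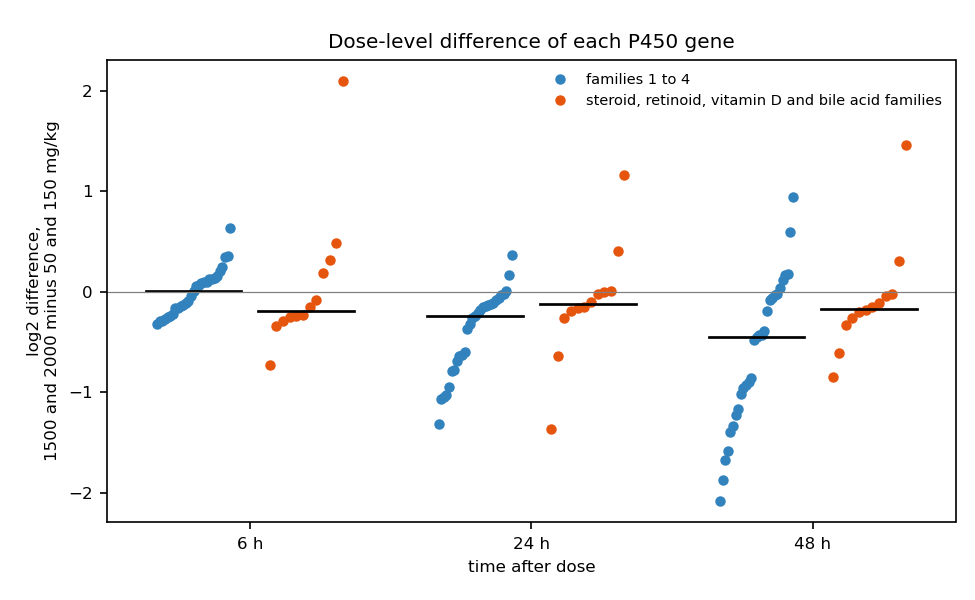
Dose-level difference (1500 and 2000 minus 50 and 150 mg/kg, log2) of each P450 gene at 6, 24 and 48 h. Points are genes, sorted within each class, blue for the 29 genes of families 1 to 4 and orange for the 12 genes of the other families, and bars are medians; the blue median is 0.01, -0.23 and -0.45 at the 3 times.

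Single rats of a high-dose group did not move equally. At 24 h, the median over the 29 members of families 1 to 4 was -0.37, -0.40 and -0.07 in the 3 rats at 1500 mg/kg and -0.20, -0.36 and -0.30 in those at 2000 mg/kg. It was between -0.06 and 0.23 in the 6 rats at 50 and 150 mg/kg. At 48 h the 6 high-dose rats stood between -0.57 and -0.26, and the 6 low-dose rats between -0.01 and 0.10. Rat 3020, the third at 1500 mg/kg and 24 h, thus lay near the range of the low-dose rats, and the widest spread of any member in any group was that of Cyp7b1 there. Over the 12 groups the median standard deviation (SD) between the rats of a group was 0.07 to 0.28. The number of calls at 1500 mg/kg and 24 h was 7 without rat 3019.

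Of 68 calls in single groups, 60 had the same sign on all 6 arrays. Some ended when 1 rat was left out. At 24 h these were, at 1500 mg/kg, Cyp2j3 and Cyp3a23-3a1 without rat 3019 (log2 -0.48 and -0.73), and Cyp4f4 and Cyp7b1 without rat 3018 (-0.65 and 0.65) or 3019 (-0.50 and 0.58). At 2000 mg/kg they were Cyp2c23 without rat 3106 (-0.46), Cyp2d5 without rat 3106 or 3107 (-0.58 and -0.55), Cyp26a1 without rat 3105 or 3106 (0.54 and 0.62), and Cyp26b1 without any of 20 rats, with -0.17 without rat 3106. At 48 h they were Cyp2c6v1 at 1500 mg/kg without rat 3006 or 3007 (-0.56 and -0.46), Cyp4v3 at 1500 mg/kg without rat 3006 (0.55), and at 2000 mg/kg Cyp1b1 without rat 3117 or 3119 (0.62 and 0.52), Cyp26a1 without rat 3118 or 3119 (0.62 and 0.52), and Cyp27a1, Cyp2c7 and Cyp8b1 without rat 3119 (-0.51, -0.53 and -0.05). At 6 h it was Cyp3a18 at 1500 mg/kg without rat 3031 or 3032 (0.54 and 0.48).

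Among the members of families 1 to 3, the lowest dose-level difference at 48 h was that of Cyp3a23-3a1, an enzyme of broad substrate range that pregnane-type steroids and dexamethasone induce in rat liver. At 48 h its log2 ratios were -1.94, -3.12 and -1.59 in the rats at 1500 mg/kg and -1.56, -1.47 and -2.43 at 2000 mg/kg, against 0.00, -0.31 and 0.91 at 50 mg/kg and -0.23, 0.02 and -0.01 at 150 mg/kg. All 6 high-dose rats lay below all 6 low-dose rats, and the dose-level difference was 4.23-fold lower (log2 -2.08 ± 0.25, SE, limma adjusted p = 2.12e-07). At 6 h the difference was 0.10 ± 0.25 and was not called. At 24 h it was -0.79 ± 0.25 (adjusted p = 0.0164), but the rats at 150 mg/kg were also low, at -0.90, -0.84 and -0.80 (adjusted p = 0.236). That call ended without rat 3019 or 3106 (-0.64 in both fits), against 150 mg/kg alone (-0.27, adjusted p = 0.546), and when the arrays were scaled to equal spread, where it turned to 0.03 (adjusted p = 0.953). Its call at 48 h was kept under these settings.

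Cyp3a18, a steroid hydroxylase more abundant in male rat liver, moved in both directions. At 6 h the high-dose rats spanned 0.10 to 0.98 with a median of 0.62, against -0.19 to 0.20 with a median of -0.13 in the low-dose rats, and the groups overlapped. The difference was 1.56-fold higher (log2 0.64 ± 0.19, adjusted p = 0.011), and it fell under the fold minimum without rat 3031, 3032 or 3095 (0.58, 0.56 and 0.58) and against 50 mg/kg alone (0.58). At 24 h the difference was 0.17 ± 0.19 and was not called. At 48 h the high-dose rats stood at -1.35 to -0.58 and the low-dose rats at -0.10 to 0.93, without overlap, and the gene was 2.51-fold lower (log2 -1.33 ± 0.19, adjusted p = 2.91e-06). The dose-level difference at 48 h minus that at 6 h was -1.97 ± 0.27 (adjusted p = 2.94e-06).

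The Cyp2c genes of rat liver differ in substrate and in the sex in which they dominate. At 48 h, 3 of the 4 measured members fell. Cyp2c23, an epoxygenase of arachidonic acid, had log2 ratios of -2.05, -2.68 and -2.10 at 1500 mg/kg and -1.09, -1.17 and -1.73 at 2000 mg/kg at 48 h, against 0.14, 0.25 and -0.35 at 50 mg/kg and 0.17, 0.03 and 0.17 at 150 mg/kg. Every high-dose rat lay below every low-dose rat, and the gene was 3.66-fold lower (log2 -1.87 ± 0.20, adjusted p = 3.14e-08). At 24 h it was 2.06-fold lower (-1.04 ± 0.20, adjusted p = 0.000183), with rat values of -1.05, -1.34 and -0.29 at 1500 mg/kg and 0.07, -1.70 and -0.99 at 2000 mg/kg, so that 1 high-dose rat showed no loss. The value at 24 h lay between -1.28 and -0.84 when single rats were left out. Its 2 probes gave -0.93 and -1.16 at 24 h and -1.84 and -1.91 at 48 h.

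Cyp2c6v1, a phenobarbital-inducible form, was 2.34-fold lower at 48 h (log2 -1.23 ± 0.22, adjusted p = 5.59e-05), with high-dose rats from -1.81 to -0.18 and low-dose rats from -0.11 to 0.82. Cyp2c7, which is more abundant in female rat liver, was 2.23-fold lower (-1.16 ± 0.22, adjusted p = 0.000116), from -2.39 to -0.39 against -0.35 to 0.52. The ranges of both genes did not overlap between dose levels, though rat 3119 alone reached -2.39 for Cyp2c7, and the value without it was -0.85. At 24 h both were called at -0.64 ± 0.22 and -0.63 ± 0.22 (adjusted p = 0.0243 and 0.0272), with overlapping ranges. Those calls ended with single rats left out, down to -0.44 for Cyp2c6v1 and -0.53 for Cyp2c7 without rat 3106, for Cyp2c6v1 also against 150 mg/kg alone (-0.35) and for Cyp2c7 against 50 mg/kg alone (-0.41). Cyp2c7 stood at 0.90, 0.80 and 0.70 in the rats at 150 mg/kg and 24 h, with a limma adjusted p of 0.174. Its high-dose rats then spanned -0.38 to 0.26, with a median of -0.09, and its low-dose rats had a median of 0.59. Most of its 24 h difference thus lay in the low-dose rats, and neither high-dose group was called against its own pool.

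Cyp2c12, the female-specific P450 of adult rat liver, was the member called at a low dose. It stood at 0.90, 0.87 and 0.79 at 50 mg/kg and 24 h, 1.8-fold above the pool (log2 0.85 ± 0.05, SD, n = 3, adjusted p = 0.000175), against -0.27, -0.20 and -0.24 at 150 mg/kg. It was also called at 48 h after 2000 mg/kg, at 0.80, 0.60 and 0.73, while the rats at 50 and 150 mg/kg then stood between 0.18 and 0.63. Between dose levels it was called at none of the 3 times, with differences of 0.25, -0.08 and 0.17. Of the 2 measured members listed as more abundant in male liver, Cyp2a2 and Cyp3a18, both were called lower between dose levels at 48 h, as were 4.09% of all features. Of the 3 listed as more abundant in female liver, Cyp2a1 and Cyp2c7 were called lower and Cyp2c12 was not.

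Cyp2d2 and Cyp2d5, of the family that hydroxylates debrisoquine and many amine drugs, were lower at 48 h, and Cyp2d4 was not called in any test. Cyp2d2 had ratios of -1.38, -1.49 and -1.18 at 1500 mg/kg and -1.17, -1.58 and -2.34 at 2000 mg/kg, against 0.04, -0.16 and 0.16 at 50 mg/kg and 0.17, 0.37 and 0.34 at 150 mg/kg. This was 3.2-fold lower (log2 -1.68 ± 0.16, adjusted p = 2.89e-09), and its 2 probes gave -1.63 and -1.72. At 24 h it was -0.69 ± 0.16 (adjusted p = 0.00105), a call that ended without rat 3019 (-0.57) and against 150 mg/kg alone (-0.49), where the 3 rats stood at -0.35, -0.42 and -0.52. Cyp2d5 was 1.9-fold lower at 48 h (-0.93 ± 0.11, adjusted p = 8.11e-08), with high-dose rats from -1.30 to -0.75 and low-dose rats from -0.22 to 0.27. Cyp2d4 differed by 0.04 at 48 h, and its 12 group means lay between -0.23 and 0.21.

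Cyp2a2, a testosterone hydroxylase of male rat liver, and Cyp2a1, its relative in the female, differed in time. Cyp2a2 was 1.71-fold lower at 24 h (log2 -0.77 ± 0.19, adjusted p = 0.00211) and 1.94-fold lower at 48 h (-0.96 ± 0.19, adjusted p = 0.000187). Its rats at 24 h stood at -1.0, -1.39 and -0.50 after 1500 mg/kg and -0.78, -1.58 and -1.25 after 2000 mg/kg, and at 0.13, -0.47 and -0.21 after 50 mg/kg and -0.36, -0.19 and -0.78 after 150 mg/kg. Those ranges overlapped, and at 48 h the ranges of -1.58 to -0.49 and -0.40 to 0.10 did not. Cyp2a1 was not called at 24 h (-0.14 ± 0.15) and was 1.81-fold lower at 48 h (-0.86 ± 0.15, adjusted p = 3.35e-05). Part of its difference lay in the low-dose rats, at 0.10 to 0.52, and neither high-dose group was called against its own pool, with means of -0.55 and -0.42. Cyp2a3, known from nasal and lung tissue, was not called in any test.

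Cyp2j3, an epoxygenase of arachidonic acid also known from rat heart, had the lowest dose-level difference of families 1 to 4 at 24 h. At 24 h its ratios were -0.89, -1.29 and -0.07 at 1500 mg/kg and -0.69, -1.99 and -1.38 at 2000 mg/kg, against 0.56, 0.54 and 0.57 at 50 mg/kg and -0.05, 0.11 and -0.15 at 150 mg/kg. It was 2.49-fold lower (log2 -1.31 ± 0.18, adjusted p = 1.42e-06), with overlap through rat 3020 alone. At 48 h all 6 high-dose rats, at -1.71 to -0.94, lay below the low-dose rats, at 0.15 to 0.46, and the gene was 2.99-fold lower (-1.58 ± 0.18, adjusted p = 5.97e-08). Cyp2j4, its neighbour, differed by -0.31 and -0.06 at 24 and 48 h and was not called.

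Among the members called between dose levels, Cyp2t1 had the smallest standard error. At 24 h the rats stood at -1.18, -1.20 and -0.79 after 1500 mg/kg and -0.81, -1.05 and -1.08 after 2000 mg/kg, against 0.50, 0.12 and 0.27 after 50 mg/kg and -0.30, -0.36 and -0.21 after 150 mg/kg. At 48 h they stood at -1.29, -1.08 and -1.04 and at -1.33, -1.24 and -1.22 after the high doses, against 0.03, -0.06 and 0.26 and 0.23, 0.49 and 0.23 after the low doses. The dose levels did not overlap at either time, and the gene was 2.03-fold lower at 24 h (log2 -1.02 ± 0.08, adjusted p = 4.34e-10) and 2.64-fold lower at 48 h (-1.40 ± 0.08, adjusted p = 1.74e-12). Cyp2f4, a form known from rat lung, was 1.93-fold lower at 24 h (-0.95 ± 0.12, adjusted p = 5.07e-07) and 1.86-fold lower at 48 h (-0.89 ± 0.12, adjusted p = 1.05e-06), also without overlap at either time. The values at these times lay within 1 SE of each other. At 6 h it was already lower after 2000 mg/kg, at -0.48, -0.73 and -0.73, while the rats at 1500 mg/kg stood at -0.22, -0.02 and 0.32. Cyp2b21 was called at 24 h alone, at -0.60 ± 0.10 (adjusted p = 3.52e-05), just over the fold minimum. Without rat 3019, 3106 or 3137 it was -0.58, -0.51 and -0.56, and against 150 mg/kg alone -0.35, so the fold minimum was no longer met.

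In family 4, 1 of 6 members was called lower and 1 higher between dose levels at 48 h (4.09% and 8.26% of all features). At 24 h 1 was called lower (3.37%), and 4 were not called between dose levels at any time. Cyp4f4, which hydroxylates leukotriene B and other eicosanoids, was 2.09-fold lower at 24 h (log2 -1.06 ± 0.20, adjusted p = 0.000126) and 2.02-fold lower at 48 h (-1.02 ± 0.20, adjusted p = 0.000167). At 48 h its rats stood at -1.16, -1.42 and -1.16 after 1500 mg/kg and -0.41, -0.98 and -1.94 after 2000 mg/kg, against -0.34 to -0.01 in the 6 low-dose rats. Cyp4v3 was 1.52-fold higher at 48 h (0.60 ± 0.10, adjusted p = 3.73e-05), with high-dose rats from 0.42 to 1.14 and low-dose rats from -0.10 to 0.90. The ranges overlapped, and the fold minimum was missed without rat 3006 (0.52), 3059 (0.57), 3119 (0.57), 3150 (0.57) or 3151 (0.54) and against 50 mg/kg alone (0.33), where the rats stood at 0.90, 0.43 and 0.29. Cyp4f1 was called lower in 1 group, at -0.57, -0.85 and -0.74 after 1500 mg/kg at 48 h, against -0.09, -0.45 and -0.26 after 2000 mg/kg. At 24 h, 1 of its rats at 2000 mg/kg had no value and was left out of the fit. Cyp4a8, Cyp4b1 and Cyp4f5 were not called in any group or between dose levels. At 48 h Cyp4f1 and Cyp4b1 differed by -0.48 and -0.39 between dose levels, under the fold minimum. Their high-dose rats lay below their low-dose rats (8.29% of all features did), by little for Cyp4f1 (-0.0858 against -0.0836). Cyp4a8 and Cyp4f5 differed by -0.45 and 0.18, with overlap.

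Of the 2 members of family 1, both known to be induced through the aryl hydrocarbon receptor, 1 rose. Cyp1b1, which oxidises polycyclic hydrocarbons and estradiol, stood at 0.90, 1.54 and 1.48 after 1500 mg/kg at 48 h and at 0.55, 0.49 and 0.75 after 2000 mg/kg. In the low-dose rats it stood at 0.39, -0.12 and 0.48 and at -1.07, 0.33 and 0.01. All high-dose rats lay above all low-dose rats, but by little, at 0.489 for the lowest against 0.485 for the highest. The gene was 1.92-fold higher (log2 0.94 ± 0.21, adjusted p = 0.000797). At 2000 mg/kg and 48 h, 4 of its 6 arrays were above 0. Cyp1a1 differed by -0.02 at 48 h and 0.13 at 6 h and was not called in any test.

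The retinoid enzymes Cyp26a1 and Cyp26b1, which hydroxylate retinoic acid and so clear it, moved at different times. Cyp26a1 had the largest difference between dose levels at 6 h among the members, and retinoic acid is known to induce it through paired receptor half-sites near its start. Its log2 ratios at 6 h were 1.10, 2.57 and 1.56 at 1500 mg/kg and 1.73, 2.88 and 2.36 at 2000 mg/kg, against -0.03, -0.28 and -0.10 at 50 mg/kg and -0.06, 0.10 and -0.03 at 150 mg/kg. The dose levels lay more than 1 log2 unit apart, and the gene was 4.29-fold higher (log2 2.10 ± 0.21, adjusted p = 2.97e-08). At 24 and 48 h the difference was 0.41 ± 0.21 and 0.31 ± 0.21 and was not called. The group at 2000 mg/kg was still above its pool then, at 1.22, 1.05 and 0.02 at 24 h and 0.34, 0.71 and 0.90 at 48 h. The dose-level difference at 48 h minus that at 6 h was -1.79 ± 0.30 (adjusted p = 4.57e-05).

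Cyp26b1 was not called at 6 h (0.19 ± 0.26). At 24 h its ratios were -1.35, -1.82 and -0.61 after 1500 mg/kg and -0.59, -1.54 and 0.26 after 2000 mg/kg, against 0.54, 0.28 and 0.30 after 50 mg/kg and 0.56, 1.06 and -0.22 after 150 mg/kg. The ranges overlapped through 1 rat at 2000 mg/kg, and the gene was 2.57-fold lower (log2 -1.36 ± 0.26, adjusted p = 0.000146). At 48 h the difference was -0.60 ± 0.26 (adjusted p = 0.0636). Cyp26a1 was therefore called upward at both high doses at 6 h. Cyp26b1 was called downward at both at 24 h, but at 2000 mg/kg its call ended without any of 20 rats (-0.17 without rat 3106). Part of its dose-level difference at 24 h lay in the low-dose rats, which had a median of 0.42.

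The promoters of Cyp26a1 and Cyp3a23-3a1 are shown because these genes had the highest dose-level difference at 6 h and the lowest at 48 h. Each of these 2 promoters holds a motif known from its gene's regulation. That of Cyp26b1 is shown beside them and held none of the motifs searched for. The promoters are the 250 bases before each start in RefSeq on GRCr8, written 5′ to 3′ on the gene's own strand. They lie at chr1:244883572-244883821 (plus strand) for Cyp26a1, at chr4:118616177-118616426 (minus strand) for Cyp26b1 and at chr12:14398804-14399053 (minus strand) for Cyp3a23-3a1. Capitals mark a direct repeat of AGTTCA, read on the opposite strand, with 5 bases between the half-sites in Cyp26a1 and 3 bases in Cyp3a23-3a1.
Cyp26a1: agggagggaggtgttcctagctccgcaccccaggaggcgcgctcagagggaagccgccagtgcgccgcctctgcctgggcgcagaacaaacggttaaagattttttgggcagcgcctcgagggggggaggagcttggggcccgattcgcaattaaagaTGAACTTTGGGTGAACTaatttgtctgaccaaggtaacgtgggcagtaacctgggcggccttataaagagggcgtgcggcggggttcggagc
Cyp26b1: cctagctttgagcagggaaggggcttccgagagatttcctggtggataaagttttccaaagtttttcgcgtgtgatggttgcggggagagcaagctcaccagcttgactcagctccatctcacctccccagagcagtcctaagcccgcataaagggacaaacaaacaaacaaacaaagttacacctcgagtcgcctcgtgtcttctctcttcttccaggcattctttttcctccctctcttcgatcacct
Cyp3a23-3a1: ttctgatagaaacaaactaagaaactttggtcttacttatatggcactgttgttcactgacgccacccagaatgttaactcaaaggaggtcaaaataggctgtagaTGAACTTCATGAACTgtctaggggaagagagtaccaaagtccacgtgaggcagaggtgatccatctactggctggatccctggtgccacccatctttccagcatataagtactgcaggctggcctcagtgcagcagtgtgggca

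Both strands of the promoters of 32 members and of 33469 promoters in all were searched for 5 motifs. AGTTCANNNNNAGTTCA was found in 3 promoters (0.00896%), of which Cyp26a1 was the single member, at bases -92 to -76 before the start. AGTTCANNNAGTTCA was found in 2 promoters (0.00598%), and among the members in Cyp3a23-3a1, at -144 to -130. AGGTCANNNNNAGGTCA was in 3 (0.00896%) and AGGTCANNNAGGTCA in 7 (0.0209%), with 0 members in both cases. TATAAA was in 12.93% of all promoters and in 8 of 32 members, among them Cyp26a1 at -31 to -26. None of these motifs overlapped another in the promoters shown. The other 10 members had no entry in the table, and a match describes the letters alone.

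Bile acid synthesis from cholesterol uses Cyp7b1 and Cyp27a1 in its alternative route, while Cyp8b1 directs the product to cholic acid, and the 3 genes went different ways. Cyp7b1, an oxysterol hydroxylase, stood at 1.54, 1.68 and -0.38 after 1500 mg/kg and 0.44, 2.15 and 1.45 after 2000 mg/kg at 24 h, against -0.11, -0.04 and 0.46 after 50 mg/kg and -0.29, -0.09 and -0.02 after 150 mg/kg. The gene was 2.23-fold higher (log2 1.16 ± 0.31, adjusted p = 0.00452), with 5 of 6 high-dose rats above 0, and leaving out single rats moved this value between 0.96 and 1.49. At 48 h it was 0.92, 1.85 and 2.20 after 1500 mg/kg and 1.26, 1.47 and 2.29 after 2000 mg/kg, 2.76-fold higher (1.47 ± 0.31, adjusted p = 0.000396). The low-dose rats spanned -0.74 to 0.99 at 48 h, because those at 50 mg/kg stood at 0.99, 0.84 and 0.15, and the ranges overlapped.

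Cyp27a1, the mitochondrial sterol hydroxylase, had a difference of 0.48 ± 0.13 at 6 h (adjusted p = 0.00457), which was under the fold minimum, and of -0.19 ± 0.13 at 24 h (adjusted p = 0.27). At 48 h it was 1.8-fold lower (log2 -0.85 ± 0.13, adjusted p = 6.23e-06), at -0.67, -1.07 and -0.86 after 1500 mg/kg and -0.49, -0.54 and -1.0 after 2000 mg/kg. The low-dose rats stood between -0.31 and 0.51, without overlap. Its difference at 48 h minus that at 6 h was -1.33 ± 0.18 (adjusted p = 2.69e-06).

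Cyp8b1 was lower at the high doses at 6 h (log2 -0.72 ± 0.24, adjusted p = 0.0236) and at 24 h (-0.64 ± 0.24, adjusted p = 0.0446), and was not called at 48 h (-0.15 ± 0.24). At 6 h the high-dose rats stood at -0.61 to 0.01 and the low-dose rats at -0.15 to 0.59, so that the difference came from both sides of 0. At 24 h the doses parted, with -1.76, -1.29 and -0.96 after 1500 mg/kg, and 0.63, 0.03 and -0.93 after 2000 mg/kg. The call at 6 h ended without rat 3094, 3095 or 3125 (-0.67, -0.68 and -0.63) and against 50 mg/kg alone (-0.57). The call at 24 h ended without any of 13 rats, at -0.43 without rat 3107, and against either low dose alone (-0.61 and -0.67).

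Cyp20a1, a P450 with no settled substrate, was higher at the high doses. At 48 h it stood at 0.84, 1.16 and 0.85 after 1500 mg/kg and 0.89, 0.66 and 1.33 after 2000 mg/kg, against -0.59, 0.17 and 0.08 after 50 mg/kg and -0.02, -0.10 and -0.18 after 150 mg/kg. The dose levels did not overlap, and the gene was 2.09-fold higher (log2 1.06 ± 0.11, adjusted p = 2.03e-08). At 24 h it was 1.59-fold higher (0.67 ± 0.11, adjusted p = 2.99e-05), which missed the fold minimum against 50 mg/kg alone (0.42), where the rats stood at 0.38, 0.26 and 0.24. At 6 h the difference was 0.37 ± 0.11 (adjusted p = 0.0111), under the fold minimum.

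**Figure D3:**
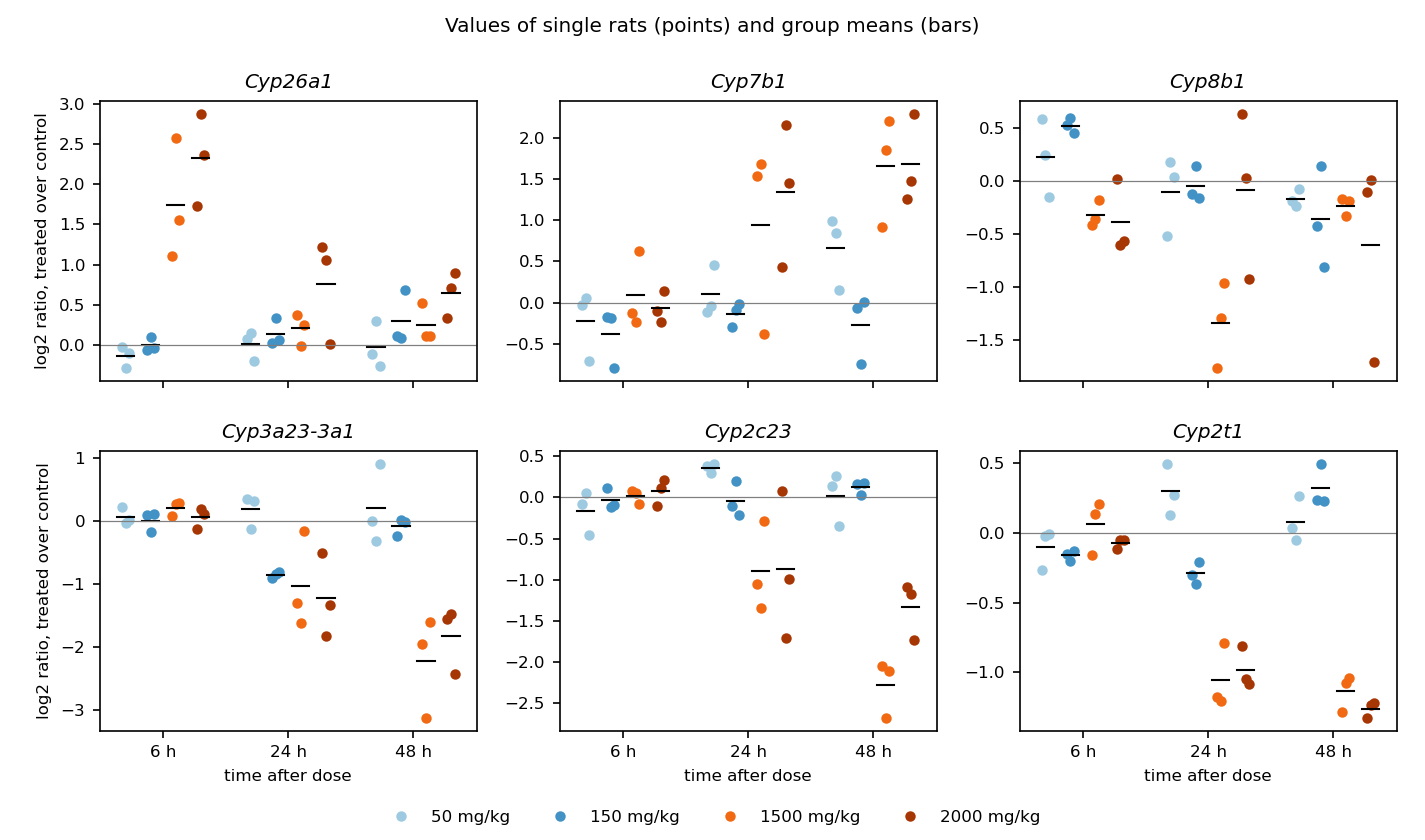
Log2 ratio of each rat over its control (points) with the group mean (bars) for 6 P450 genes at 6, 24 and 48 h, with doses rising from left to right within each time (50, 150, 1500 and 2000 mg/kg). Cyp26a1 stands apart at the high doses at 6 h, at 1.10 to 2.88, and Cyp3a23-3a1, Cyp2c23 and Cyp2t1 stand apart at 48 h, at -3.12 to -1.04.

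**Figure D4:**
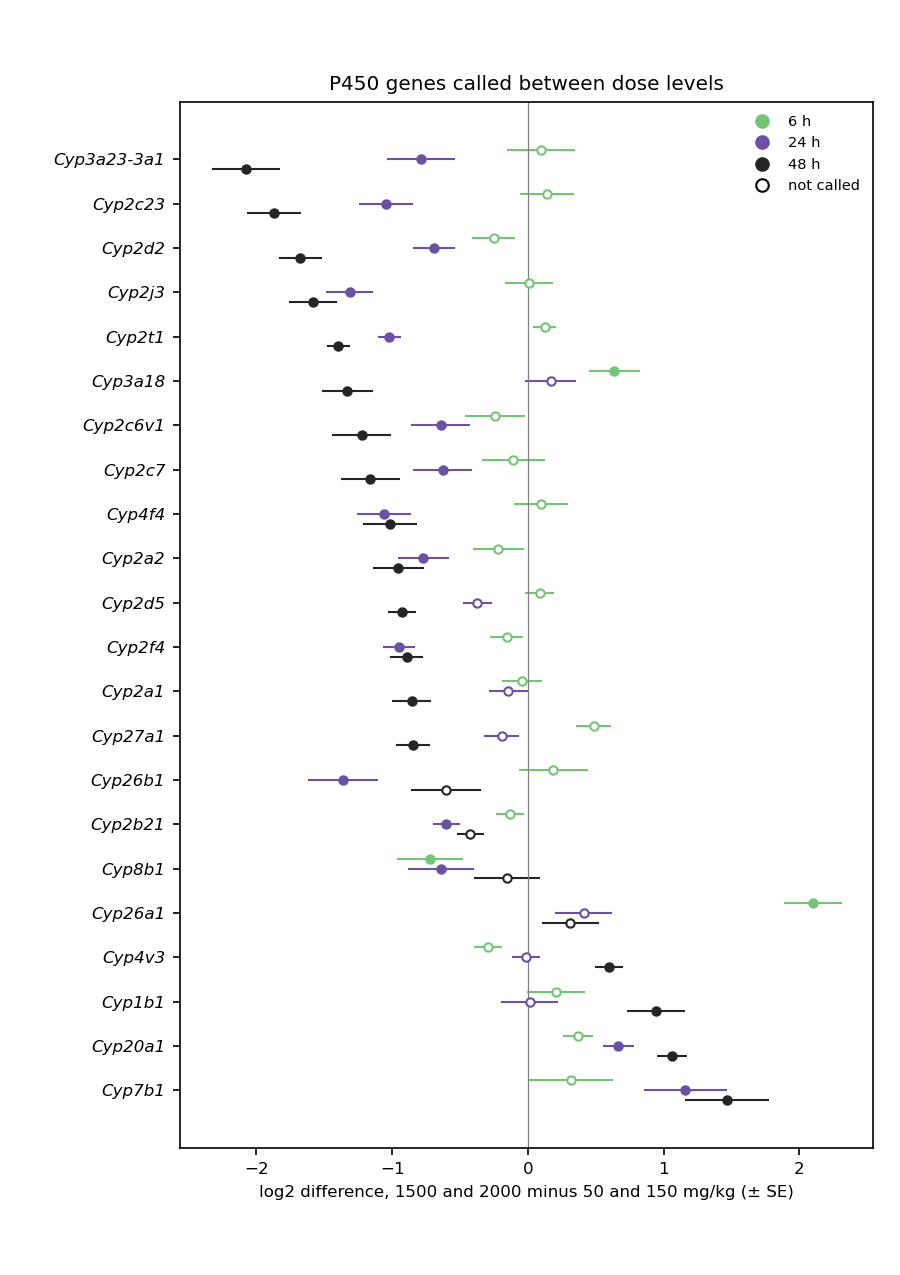
Dose-level difference (1500 and 2000 minus 50 and 150 mg/kg, log2, ± SE of the limma fit) at 6, 24 and 48 h for the P450 genes called at 1 or more times, sorted by the value at 48 h. Filled points were called and open points were not; the values at 48 h run from -2.08 for Cyp3a23-3a1 to 1.47 for Cyp7b1.

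The remaining 18 members were called in no single group and in no comparison of dose levels. Of these, 11 belong to families 1 to 4, namely Cyp1a1, Cyp2a3, Cyp2b12, Cyp2d4, Cyp2g1, Cyp2j4, Cyp2s1, Cyp2u1, Cyp4a8, Cyp4b1 and Cyp4f5. The other 7 are Cyp11a1, Cyp11b1, Cyp17a1, Cyp19a1 and Cyp21a1, which make steroid hormones in adrenal and gonad, and Cyp24a1 and Cyp27b1, which act on vitamin D in kidney. Their 216 group means lay between -0.58 and 0.57, and 186 of them were within 0.3 of 0. In the lists of steroid hormone genes (5 measured) and vitamin D genes (2 measured), 0 were called between dose levels at any time. Many of these genes are known mainly from other organs. Probe brightness was not analysed here, so a ratio near 0 cannot be told apart from a probe at background. Without the fold minimum, several passed on adjusted p alone: Cyp4b1 was 0.36 ± 0.08 at 6 h (adjusted p = 0.000744) and -0.39 ± 0.08 at 48 h (adjusted p = 0.00019), with no overlap between dose levels at either time, and Cyp11a1 was -0.33 ± 0.07 at 48 h (adjusted p = 0.000749).

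Ranges of single rats at the high and low doses did not overlap for 2 members higher and 1 lower at 6 h (6.58% and 3.85% of all features), for 0 higher and 4 lower at 24 h (6.27% and 4.47%), and for 2 higher and 20 lower at 48 h (9.73% and 8.29%). In 24 h livers the 4 were Cyp2b21, Cyp2f4, Cyp2t1 and Cyp11a1. At both 24 and 48 h, 10 genes were called lower between dose levels: Cyp2a2, Cyp2c23, Cyp2c6v1, Cyp2c7, Cyp2d2, Cyp2f4, Cyp2j3, Cyp2t1, Cyp3a23-3a1 and Cyp4f4. Those with the deepest values at 48 h were Cyp3a23-3a1, Cyp2c23, Cyp2d2 and Cyp2j3. For Cyp2c7 the 24 h difference lay mostly in the low-dose rats. In a list of arachidonate and leukotriene genes, 5 were measured, and Cyp2j3 and Cyp4f4 were called lower at both times. Both measured members listed as inducible through the receptors CAR and PXR, Cyp2c6v1 and Cyp3a23-3a1, were called lower at both times. At these times 3.37% and 4.09% of all features were. Neither gene kept its 24 h call under the random block (limma adjusted p = 0.196 for Cyp2c6v1, 0.166 for Cyp3a23-3a1). Scaling the arrays to equal spread ended both as well (log2 -0.15 and 0.03), as did omitting rat 3019 or 3106. Leaving out single rats ended neither call at 48 h. Cyp4a8, the 1 measured member listed for PPARA, was not called. Added at 48 h were Cyp27a1, Cyp2a1, Cyp2d5 and Cyp3a18. Called lower at 24 h and no longer at 48 h were Cyp26b1, Cyp2b21 and Cyp8b1.

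The change over time was tested as the dose-level difference at 48 h minus that at 6 h. Of 42 members, 2 were called higher and 16 lower (14% of all features were called, 7.81% higher and 6.19% lower). In families 1 to 4, 14 of 29 were lower and 1, Cyp4v3 (log2 0.89 ± 0.15, adjusted p = 3.6e-05), was higher. Cyp3a23-3a1 had the lowest value, -2.18 ± 0.35 (adjusted p = 3.31e-05), followed by Cyp2c23 at -2.01 ± 0.28 and Cyp3a18 at -1.97 ± 0.27. Cyp2t1 was at -1.52 ± 0.12 (adjusted p = 3.7e-10), and Cyp4b1 at -0.75 ± 0.11. The call of Cyp2a2 (-0.74 ± 0.27, adjusted p = 0.0388) ended without any of 14 rats, at -0.63 without rat 3119. The value of Cyp2c7 (-1.05 ± 0.32), for which 1 rat at 150 mg/kg and 6 h had no value, was -0.74 without rat 3119. That of Cyp20a1 (0.69 ± 0.16) was 0.57 without rat 3149, under the fold minimum.

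The 2 high doses differed in 1 member at each time. At 6 h Cyp2f4 was lower at 2000 than at 1500 mg/kg (log2 -0.68 ± 0.17, adjusted p = 0.0406, with 0.613% of all features called, 0.376% higher and 0.237% lower). At 24 h Cyp8b1 was higher at 2000 mg/kg (1.25 ± 0.34, adjusted p = 0.0179, 5.19%, 2.5% higher and 2.68% lower), and at 48 h Cyp2c23 was higher at 2000 mg/kg (0.95 ± 0.28, adjusted p = 0.0251, 5.4%, 2.08% higher and 3.32% lower), that is, less reduced. Each of these calls ended with single rats left out: that of Cyp2f4 without any of 9 rats, at -0.53 without rat 3032, that of Cyp8b1 without rat 3018, 3105 or 3106 (1.04, 0.89 and 1.19), and that of Cyp2c23 without rat 3007, 3117 or 3118 (0.75, 0.83 and 0.87). They also ended with the arrays scaled to equal spread and with the compared rats fitted alone.

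Neighbouring members of a gene cluster were not all called alike, and differences between neighbours were not tested. In the current gene table (GRCr8), 26 members lie in 8 clusters within which neighbouring members stand less than 1 Mb apart. In 5 clusters some members were called lower between dose levels at 48 h (4.09% of all features were) and others were not. Among those not called in these 5 clusters, Cyp2b21 and Cyp4f1 were also below 0, at -0.42 and -0.48. Cyp2g1, Cyp2s1, Cyp2j4 and Cyp2a3 were below 0 by less, at -0.19, -0.08, -0.06 and -0.03. Cyp2b12, Cyp2c12, Cyp2d4 and Cyp4f5 stood above 0. Along the chromosome 1 cluster of 9 members, Cyp2s1, Cyp2b21, Cyp2b12, Cyp2g1 and Cyp2a3 were not called at 48 h, and Cyp2a1, Cyp2a2, Cyp2f4 and Cyp2t1, which follow them in this order, were lower. On the same chromosome Cyp2c6v1 and Cyp2c7 were lower beside Cyp2c12, and on chromosome 5 Cyp2j3 was lower beside Cyp2j4. On chromosome 7 Cyp4f4 was lower between Cyp4f5 and Cyp4f1, and Cyp2d5 and Cyp2d2 were lower beside Cyp2d4. Both chromosome 12 members, Cyp3a18 and Cyp3a23-3a1, were lower. Members of the Cyp2a, Cyp2c, Cyp2d, Cyp3a and Cyp4f subfamilies are close copies, and the probe sequences were not analysed here, so signal shared between copies cannot be told apart.

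P450 enzymes need electrons, heme and their regulators, and lists of such genes were set beside the members. Their calls are between dose levels, where 8.13%, 9.93% and 12.4% of all features were called at 6, 24 and 48 h. Of 5 measured electron donors, Por, the reductase of all microsomal P450s, was higher at 6 h (log2 1.58 ± 0.15, adjusted p = 1.77e-08) and 24 h (0.98 ± 0.14, adjusted p = 5.2e-06) and was not called at 48 h (0.41 ± 0.14). Its high-dose rats spanned 1.51 to 2.32 at 6 h, against -0.06 to 0.85 in 5 low-dose rats with a value. Cyb5r3, the cytochrome b5 reductase, was lower at 24 and 48 h (-1.07 ± 0.12 and -1.34 ± 0.12), and Cyb5b was higher at 48 h (0.63 ± 0.13). The list had a median of 0.03, -0.06 and -0.01 at the 3 times.

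Of 9 measured genes of heme synthesis and breakdown, Hmox1, the heme oxygenase, was higher at all 3 times (log2 1.41 ± 0.41, 2.18 ± 0.41 and 1.47 ± 0.41, adjusted p = 0.00998, 0.000153 and 0.00559). Alas1, the first enzyme of heme synthesis, was lower at 48 h (-0.69 ± 0.19, adjusted p = 0.00438), with high-dose rats from -1.19 to -0.28 and low-dose rats from -0.89 to 0.78. Alad, the second enzyme of that path, was lower at 6 h (-0.83 ± 0.09), and Blvra, a biliverdin reductase, was higher at 48 h (0.73 ± 0.07). The list had medians of 0.09, 0.04 and 0.02.

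Of 15 measured nuclear receptors and regulators of P450 genes, 1 was higher and 2 lower at 6 h, 1 higher at 24 h, and 1 higher and 2 lower at 48 h. These are 3, 1 and 3 calls, beside 8.13%, 9.93% and 12.4% of all features. Nr1i2, the pregnane X receptor that drives Cyp3a genes, was higher at 6 h (log2 0.80 ± 0.09, adjusted p = 2.28e-07), when Nr1h3 (-0.61 ± 0.08) and Cebpa (-0.88 ± 0.16) were lower. Nr1i3, the constitutive androstane receptor that drives Cyp2b and Cyp2c genes, was lower at 48 h (-0.97 ± 0.20, adjusted p = 0.000345), with high-dose rats from -1.73 to 0.37 and low-dose rats from -0.34 to 0.46. Nr0b2, the repressor that bile acids induce, was lower at 48 h (-1.91 ± 0.44, adjusted p = 0.00109). Its high-dose rats spanned -3.29 to -0.75 and its low-dose rats -1.98 to 1.04, so that the ranges overlapped. Vdr, the vitamin D receptor, was higher at 24 and 48 h (1.07 ± 0.09 and 0.92 ± 0.09). The list's medians were -0.13, -0.18 and -0.27, against -0.0043, -0.0186 and -0.0285 over all features.

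**Figure D5:**
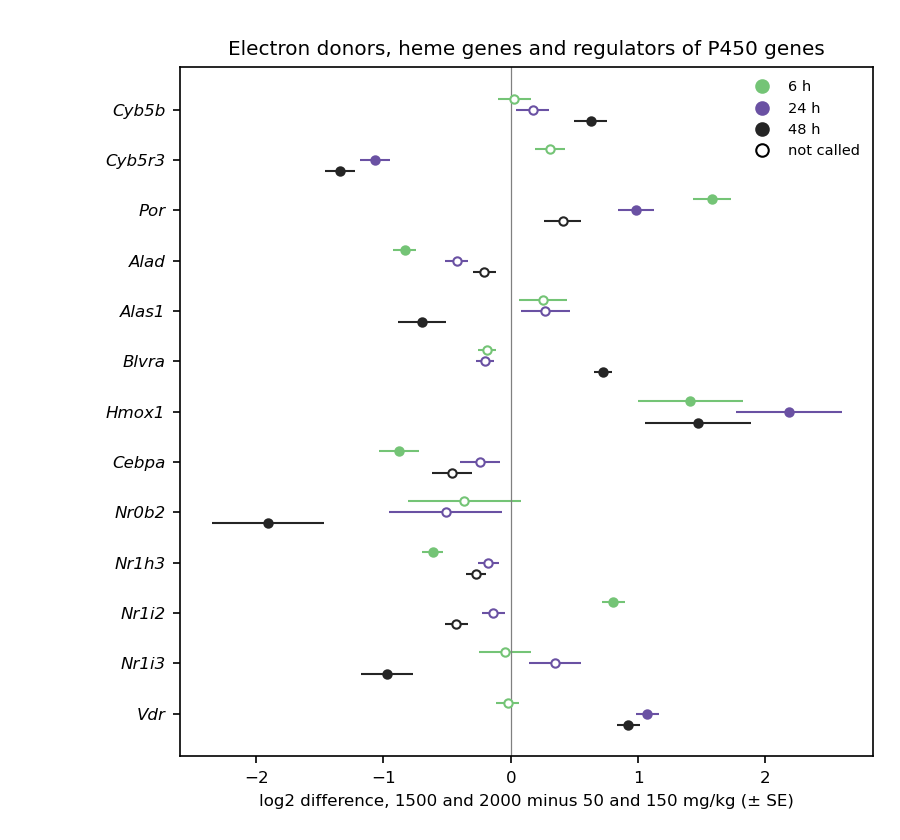
Dose-level difference (1500 and 2000 minus 50 and 150 mg/kg, log2, ± SE of the limma fit) at 6, 24 and 48 h for the electron donors, heme genes and regulators called at 1 or more times. Filled points were called and open points were not; Por is filled at 6 and 24 h, at 1.58 and 0.98, and Hmox1 at all 3 times.

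Other oxidases and hydrolases of drug metabolism moved in both directions beside the P450s. Of 11 measured, Fmo1, a flavin monooxygenase, was lower at 24 h (log2 -1.51 ± 0.21) and 48 h (-2.15 ± 0.21, adjusted p = 6.37e-09), Ces1d was lower at 48 h (-2.04 ± 0.23) and Aldh2 at 48 h (-0.78 ± 0.07). Ephx1, the microsomal epoxide hydrolase, was higher at 24 h (1.51 ± 0.16) and 48 h (1.10 ± 0.16), and Ces2c at 6 h (1.00 ± 0.09). The list's medians were -0.01, -0.20 and -0.16. Of the 7 P450 genes left out by the rule, 5 were lower at 48 h (4.09% of all features were), from -3.68 for Cyp2c11 to -1.44 for Cyp2e1, against -2.08 to -0.85 in the 14 members called lower.

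Markers of other cell types moved at 24 and 48 h as well, and their part in the P450 results was not tested. At 24 h S100a9 had a median of 1.86 in high-dose and 0.30 in low-dose rats. Spp1 had 1.19 and -0.23, and Clec4f -0.93 and -0.16. In the same lists Cxcr2 had -0.01 and -0.02, Krt19 -0.06 and 0.02, and Cd68 -0.15 and -0.07. Ranges of single rats overlapped for all of these. At 48 h, when 12.4% of all features were called, 2 of 3 measured neutrophil markers were higher (S100a8 and S100a9, range of the list -0.05 to 2.02), as were 1 of 7 macrophage markers (Marco, -0.57 to 1.16), 2 of 5 stellate cell markers (Col1a2 and Des, -0.33 to 1.59) and 1 of 4 cholangiocyte markers (Spp1, -0.08 to 5.61). For S100a8 the lowest value and the median of the low-dose rats at 48 h were both 0. Its ranges overlapped, at -0.12 to 1.94 in high-dose rats and 0 to 0.28 in low-dose rats. Of 5 lymphocyte markers 1 was lower, and of 5 endothelial markers 0 were called. Even so, Cdh5 was higher in all high-dose rats (0.42 to 0.75 against -0.16 to 0.24). Vwf was lower in all of them (-0.46 to -0.22 against -0.19 to 0.09). The other endothelial markers overlapped. Over all features, 9.73% were higher and 8.29% lower at 48 h without overlap. Of 3 measured hepatocyte markers, Apoa1 was higher at 48 h (log2 1.31 ± 0.16), Fgb was 0.43 ± 0.17 and Apob -0.35 ± 0.10, neither called, and at 24 h Fgb was higher (1.28 ± 0.17). At 6 h, when Cyp26a1 was high, 0 markers of the other cell types were called and Apob was lower (-0.78 ± 0.10).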

How the data were processed

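The deposited values are log10 ratios of the 2 dye channels of each of 72 Agilent rat arrays (20500 probes), made by the authors with Agilent Feature Extraction, per the labels' protocols. Its settings and normalization are not stated there. Each array was centred near 0, with column medians of -0.01907 to 0.01899. Of all values 0.2105% were missing, and 3 of 3168 values of the P450 genes were. Signal intensities were not used here.

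Ratios were turned to treated over control by the dye named in the labels (Cy5 positive, Cy3 negative), converted to log2 and averaged over a rat's 2 arrays, then over probes with the same single symbol. Before turning, the 2 arrays correlated below 0 in 21 of 36 rats, and in 29 after the mean dye effect was removed. A feature needed values from 2 rats in every group, which 17299 of 17403 met. Symbols came from GEO's platform annotation: 12750 probes had 1 symbol, 5 had several and 7745 had none.

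limma 3.58.1 in R 4.3.3 (lmFit, eBayes) fitted 12 group means over all 36 rats, with 24 residual degrees of freedom, tested two-sided and adjusted by Benjamini-Hochberg over all features. It was tested on simulated data. The controls of a group are 1 sample, so no p-value covers how control rats differ among themselves, and the number of arrays limits the precision. All members called in a group or between dose levels are named with values. The members and gene lists were chosen with earlier results of these data known. The alternatives changed array scale and centring, exact 0 values, missing values, unit of observation, rats in the fit, probes, fold minimum, control pools and single rats. The low-dose arms taken one at a time were added after seeing the data. Promoters were read from RefSeq (GRCr8).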

Additional observations from a re-analysis of the deposited data

Results flagged for a closer look

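The effect of the high doses differed between groups for the following genes, in each case by a limma test of the difference itself.

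Between 2000 and 1500 mg/kg, the log2 difference was -0.68 ± 0.17 (SE, adjusted p = 0.0406) for Cyp2f4 at 6 h, 1.25 ± 0.34 (adjusted p = 0.0179) for Cyp8b1 at 24 h and 0.95 ± 0.28 (adjusted p = 0.0251) for Cyp2c23 at 48 h. Of the 2 probes of Cyp2c23, 1 was called on its own at 48 h (1.14, adjusted p = 0.0128) and the other was not (0.75, adjusted p = 0.0606).

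Between 48 h and 6 h, the difference between the dose levels moved downward for 16 genes. It did so by -2.18 for Cyp3a23-3a1, -2.01 for Cyp2c23, -1.97 for Cyp3a18, -1.79 for Cyp26a1, -1.59 for Cyp2j3, -1.52 for Cyp2t1, -1.42 for Cyp2d2 and -1.33 for Cyp27a1. The other 8 were Cyp4f4 at -1.11, Cyp2c7 at -1.05, Cyp2d5 at -1.02, Cyp2c6v1 at -0.98, Cyp2a1 at -0.82, Cyp4b1 at -0.75, Cyp2a2 at -0.74 and Cyp2f4 at -0.74. It moved upward by 0.89 for Cyp4v3 and 0.69 for Cyp20a1. Cyp26a1 differs from the other downward genes in its start, since it was 4.29-fold higher at 6 h and not called at 48 h. Cyp4b1 was called in this test alone, with values of opposite sign at the 2 times that were both under the fold minimum. Cyp3a18 was called in opposite directions at 6 and 48 h.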

How the results depend on the processing

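Of 124 calls of single P450 genes, 0 were lost with exact 0 values taken as missing or with arrays as observations, and 0 of 118 when all 3 rats of every group were required. Of the 124, centring ended 1, the compared rats alone 24 and scaled arrays 31, and 30 ended without some single rat. Of the 36 calls between dose levels, the random block ended 8, 50 mg/kg alone 6 and 150 mg/kg alone 5. With scaled arrays 1 call reversed, Cyp3a23-3a1 between dose levels at 24 h, at 0.0252. The cause was not tested.

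Counts of called genes moved by more than 1.5 times as follows. With scaled arrays they were 1 at 6 h in each of the groups of 50, 150, 1500 and 2000 mg/kg, 8 at 150 mg/kg and 24 h, 7 at 1500 mg/kg and 24 h, 1 at 150 mg/kg and 48 h, 8 between dose levels at 24 h, and 0 between 2000 and 1500 mg/kg at 6, 24 and 48 h. Without a fold minimum they were 11 and 13 at 1500 and 2000 mg/kg at 6 h, 7, 23 and 23 at 50, 1500 and 2000 mg/kg at 24 h, 6, 3, 30 and 33 at the 4 doses at 48 h, 15 between dose levels at 6 h, and 2, 4 and 5 between 2000 and 1500 mg/kg. With a 2-fold minimum they were 1 and 1 at 1500 and 2000 mg/kg at 6 h, 0, 4 and 7 at 50, 1500 and 2000 mg/kg at 24 h, 10 and 12 at 1500 and 2000 mg/kg at 48 h, 1, 6 and 11 between dose levels at the 3 times, 0 between 2000 and 1500 mg/kg at 6 and 48 h, and 11 for 48 h against 6 h. With the compared rats alone they were 0 at 1500 mg/kg and 6 h, 0, 1 and 3 at 50, 150 and 1500 mg/kg at 24 h, and 0 between 2000 and 1500 mg/kg at all 3 times. With arrays as observations they were 3 at 150 mg/kg and 24 h, 1 at 50 mg/kg and 48 h, and 2 and 2 between 2000 and 1500 mg/kg at 6 and 24 h. Against 50 mg/kg alone, 1 was called between dose levels at 6 h, and with the random block 1 at 6 h and 9 at 24 h. When every probe of a gene had to be called, 0 remained between 2000 and 1500 mg/kg at 48 h, since 1 of the 2 probes of Cyp2c23 was called there.

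With single rats left out, the counts ranged from 2 to 3 at 1500 mg/kg and 6 h, 1 to 2, 0 to 1, 7 to 14 and 11 to 14 at the 4 doses at 24 h, 0 to 1, 18 to 18 and 16 to 20 at 50, 1500 and 2000 mg/kg at 48 h, 1 to 3, 10 to 15 and 17 to 19 between dose levels, 0 to 2, 0 to 2 and 0 to 1 between 2000 and 1500 mg/kg, and 17 to 21 for 48 h against 6 h. No paired analysis was possible because the rat numbers are not shared between groups.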
